A study of Mus musculus with 18 samples.

Results

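The CXC and CX3C chemokines followed here are Cxcl1, Cxcl5, Cxcl9, Cxcl10, Cxcl11, Cxcl12, Cxcl13, Cxcl14, Cxcl16 and Cx3cl1. These 10 genes were taken by name, as members of the family, and 9 of them were among the 33440 genes of the tables. Cxcl11 was not analysed here. Of the 9, 8 were high enough to be tested in stromal vascular fraction (SVF)-derived adipocytes and 5 in adipocyte RNA from tissue, and all 9 are given below with their values.

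The study asked which genes lie downstream of the transcription factor IRF3 in adipocytes of C57BL/6 mice, in 2 RNA-sequencing experiments. In the first, the SVF of inguinal fat from IRF3-2D mice was differentiated in culture, given AAV-GFP (3 libraries, called WT) or AAV-GFP-Cre (3 libraries, called FI3OE) on day 6, and harvested on day 8. Both arms carry the silent IRF3-2D allele, a constitutively active mutant of IRF3, and the FI3OE arm differs by the Cre virus as well as by the activated allele. In the second, RNA on tagged ribosomes was pulled down (TRAP) from epididymal fat (eWAT) of Ad-NuTRAP mice (WT, 6 libraries) and FI3KO-Ad-NuTRAP mice (FI3KO, 6 libraries, Irf3 deleted in adipocytes) after 8 weeks of high-fat diet (HFD) at thermoneutrality. The study's Cre line for adipocytes is Adipoq-Cre, and the NuTRAP tag is made only in cells that express Cre. The study's methods describe males started on HFD at thermoneutrality at 8 weeks of age and fed for longer than the TRAP mice, which are not named there. The number of animals behind each library is not given in the sources used here, so p-values measure the spread between these samples, which may be partly technical.

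Chemokines are small secreted proteins that draw leukocytes along a gradient by binding receptors coupled to G proteins. Members of the CXC group with the ELR motif, among them Cxcl1 and Cxcl5, attract neutrophils through Cxcr2, whereas Cxcl9, Cxcl10 and Cxcl11 are induced by interferons and recruit activated T and NK cells through Cxcr3. Cxcl12 holds leukocytes and progenitors in tissues through Cxcr4 and is scavenged by Ackr3, Cxcl13 guides B cells through Cxcr5, and Cxcl14 is a homeostatic member without an agreed receptor. Cxcl16 (receptor Cxcr6) and Cx3cl1 (fractalkine, receptor Cx3cr1) are made as membrane proteins on a mucin stalk and are shed by Adam10 and Adam17.

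Depth was 21.5 to 36.9 M estimated reads per library (M, 1e6) for SVF-derived adipocytes and 25.3 to 40.5 M for TRAP. A library in which a gene had no read could hold up to 3 reads' worth of it, which is 0.0741 to 0.139 CPM (counts per 1e6 estimated reads) over the 18 libraries and covers counting error only. Irf3 measured 57.4 ± 1.02 CPM in WT cultures and rose to 94.4 ± 5.18 CPM with FI3OE (SD, n = 3 each; log2 fold change 0.73, edgeR adjusted p = 3.30e-07) and fell from 20.4 ± 2.05 to 15.5 ± 2.19 CPM in FI3KO TRAP (n = 6 each; log2 fold change -0.35, edgeR adjusted p = 0.0198). One 419-codon Irf3 transcript (1429 bases) had 163.6 to 388.1 estimated reads in each WT TRAP library and none in any FI3KO library. Other 419-codon Irf3 transcripts were still assigned reads in FI3KO: one of 1712 bases measured 6.54 TPM against 4.24 TPM in WT, and one of 2031 bases 2.82 against 1.28 TPM. A 67-codon Irf3 transcript of 369 bases measured 45.97 TPM in FI3KO, which was 64.9% of the gene's TPM, against 1.14 TPM in WT. Per length the gene's TPM was therefore higher in FI3KO (69.7 ± 14.5) than in WT (44.4 ± 3.43), although its CPM was lower. WT TRAP replicates 1 and 2 were closer to each other (chi-square per degree of freedom 2.57 over genes) than any other pair of TRAP libraries of a group (9.14 to 299) or any pair of culture libraries of a group (4.1 to 8.5). This pair lay at 83.3 to 146 from WT replicates 3 to 6, which lay at 9.14 to 141 from one another, so these ranges overlapped. The pair differed beyond counting noise and both were counted, but 2 libraries made from 1 RNA could do so too, so the WT TRAP group of n = 6 may hold 5 independent samples, and the result with the pair summed is given below. FI3KO replicates 1 and 2 stood apart, at 39.2 between them and 124 to 299 against FI3KO replicates 3 to 6, which lay at 18.5 to 95.2 from one another. The labels name no difference between these replicates, and the division was known from earlier results of these data. TRAP values are over all libraries of a group unless a replicate set is named.

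In GRCm38 the genes lie at chr5:90891241-90893115 (Cxcl1, plus strand), chr5:90759360-90761624 (Cxcl5, plus), chr5:92321347-92328079 (Cxcl9, minus), chr5:92346638-92348889 (Cxcl10, minus) and chr5:95956951-95961068 (Cxcl13, plus), with the others at chr6:117168535-117181367 (Cxcl12, plus), chr8:94772009-94782427 (Cx3cl1, plus), chr11:70453983-70459984 (Cxcl16, minus) and chr13:56288643-56296551 (Cxcl14, minus). Promoters of 7 of the 10 genes were found in the RefSeq table (build GRCm38.p6). The 250 bases before the start of 4 are shown because Cxcl9, Cxcl10 and Cxcl14 were the chemokines that rose most in FI3OE, and Cxcl1 carries a motif shared with 2 of them. Capitals mark matches, on either strand, to the letters of an interferon regulatory factor (IRF) motif (GAAANNGAA), a kB motif (GGGANNTTC) or a STAT motif (TTCNNNGAA), with bases written 5′ to 3′ on the gene's strand.
Cxcl9, chr5:92328080-92328329, minus strand: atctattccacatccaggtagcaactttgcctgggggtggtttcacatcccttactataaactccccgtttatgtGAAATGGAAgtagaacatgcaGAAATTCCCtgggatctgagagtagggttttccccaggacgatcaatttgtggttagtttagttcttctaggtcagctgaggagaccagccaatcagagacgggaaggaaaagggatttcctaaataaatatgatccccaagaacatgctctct
Cxcl10, chr5:92348890-92349139, minus strand: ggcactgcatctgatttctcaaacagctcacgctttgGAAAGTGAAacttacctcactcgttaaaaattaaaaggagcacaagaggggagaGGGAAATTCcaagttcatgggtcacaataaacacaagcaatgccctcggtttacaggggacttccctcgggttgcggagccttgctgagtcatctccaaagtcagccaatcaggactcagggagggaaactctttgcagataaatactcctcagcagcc
Cxcl14, chr13:56296552-56296801, minus strand: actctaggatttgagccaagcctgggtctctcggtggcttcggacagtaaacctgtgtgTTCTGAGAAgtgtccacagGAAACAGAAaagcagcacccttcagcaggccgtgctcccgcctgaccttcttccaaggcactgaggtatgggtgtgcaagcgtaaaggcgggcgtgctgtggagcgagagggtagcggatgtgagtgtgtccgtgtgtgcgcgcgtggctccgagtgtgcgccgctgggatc
Cxcl1, chr5:90890995-90891244, plus strand: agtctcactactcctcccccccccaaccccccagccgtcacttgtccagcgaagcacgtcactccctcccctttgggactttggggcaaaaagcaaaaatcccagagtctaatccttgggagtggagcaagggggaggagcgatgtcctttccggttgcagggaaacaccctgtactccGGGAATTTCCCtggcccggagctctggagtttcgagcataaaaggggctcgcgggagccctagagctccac

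The IRF letters stood at bases -175 to -167 of Cxcl9 (GAAATGGAA), -213 to -205 of Cxcl10 (GAAAGTGAA) and -172 to -164 of Cxcl14 (GAAACAGAA), counted from the base before the start as -1. Among all 27025 promoters of that length, 7.16% held them, against 3 of the 7 chemokine promoters. The kB letters were in Cxcl9 (-154 to -146), Cxcl10 (-159 to -151) and Cxcl1, where a match on each strand overlapped (-71 to -63 and -69 to -61), and in 3.17% of all promoters. The STAT letters were in Cxcl14 (-191 to -183) and in 7.18% of all promoters. The promoters of Cxcl12, Cxcl13 and Cx3cl1 held none of the 3 motifs within this window. A match of letters is not a measured binding site.

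Levels of different genes were compared as TPM, which is read number per transcript length, scaled to the same total in every library. In WT SVF-derived adipocytes Cxcl12 was the most abundant of the 9 at 113 ± 14.04 TPM (SD, n = 3). Cxcl10 (39.4 ± 2.03 TPM) and Cxcl16 (35.7 ± 4.58 TPM) came next with overlapping ranges. Cx3cl1 (6.45 ± 1.64 TPM) and Cxcl14 (5.87 ± 1.17 TPM) overlapped as well, followed without overlap by Cxcl9 (2.96 ± 0.373 TPM) and Cxcl1 (2.23 ± 0.575 TPM). Only 51.4% of the Cx3cl1 TPM was its 395-codon transcript (2.91 to 3.99 TPM), which lay below the 99-codon Cxcl14 transcript (4.54 to 6.50 TPM). Cxcl13 (0.527 ± 0.0509 TPM) and Cxcl5 (0.447 ± 0.106 TPM) were the lowest and could not be ordered. By gene TPM the leading members in cultures were the stromal retention chemokine Cxcl12, the interferon-induced Cxcl10 and the membrane-bound Cxcl16. Neutrophil and B cell attractants lay near the bottom. Only 26.6% of the Cxcl16 TPM was the 246-codon transcript that encodes the full protein. It measured 8.89 to 9.91 TPM, below the 98-codon Cxcl10 transcript at 36.3 to 39.7 TPM.

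In WT TRAP RNA Cxcl12 again ranked first by its mean, at 33.1 ± 19.9 TPM (SD, n = 6), ahead of Cxcl1 (10.0 ± 7.82 TPM), Cxcl9 (5.09 ± 2.51 TPM), Cxcl10 (3.53 ± 1.04 TPM) and Cxcl16 (2.44 ± 0.654 TPM). Each of these overlapped the next in range, and the order differed between the replicate sets. In WT replicates 3 to 6 Cxcl12 (43.1 to 49.4 TPM) was followed by Cxcl1 (8.17 to 21.3 TPM), and neither overlapped the others. In WT replicates 1 and 2 Cxcl12 (6.93 and 8.17 TPM) and Cxcl9 (8.13 and 7.65 TPM) overlapped at the top, and Cxcl1 (1.58 and 1.56 TPM) lay below Cxcl10 and Cxcl16. Cx3cl1 (0.510 ± 0.513 TPM), Cxcl14 (0.155 ± 0.0783 TPM) and Cxcl13 (0.0767 ± 0.0928 TPM) lay below, and Cxcl5 had no read in any WT TRAP library. The only neighbours whose ranges did not overlap were Cxcl16 and Cx3cl1. Within the interferon-induced pair the order turned between the experiments: Cxcl9 exceeded Cxcl10 in TPM in 5 of 6 WT TRAP libraries and 5 of 6 FI3KO libraries, and in 0 of 3 libraries of each SVF group. The experiments differ in depot, culture, diet and RNA preparation together, and these levels were not tested against each other.

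**Figure D1:**
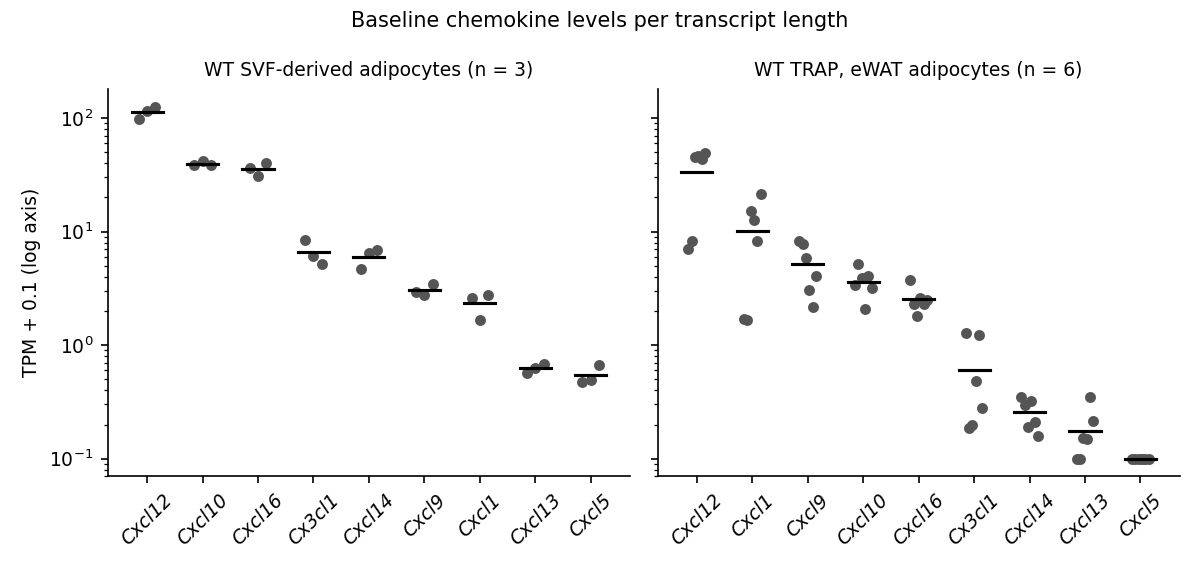
Level of each chemokine in WT libraries as TPM plus 0.1 on a log axis, 1 point per library, with the bar at the mean and genes ordered by their mean. Cxcl12 has the highest mean in both panels, and its WT TRAP points fall into a pair at 6.93 and 8.17 TPM and 4 libraries from 43.1 to 49.4 TPM.

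The first comparison asked how the chemokines differ when active IRF3 is switched on in SVF-derived adipocytes. Cxcl10, Cxcl9 and Cxcl14 rose, Cxcl5 rose on few reads, Cxcl12 fell, and Cxcl1, Cxcl16 and Cx3cl1 did not pass the test. Of the 8 tested, 5 had an adjusted p of at most 0.05 (edgeR quasi-likelihood test with Benjamini-Hochberg adjustment over 16105 genes), as did 37.0% of all genes tested. These were 4 higher and 1 lower, where 20.2% of all genes were higher and 16.8% lower. With a log2 fold change of at least 1 as well, 3 were higher and 0 lower, against 1.99% and 1.63% of all genes. The median log2 fold change of the 8 was 0.41, and that of all genes tested was -0.0047.

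Cxcl10, a ligand of Cxcr3, measured 23.6, 26.0 and 23.7 CPM in the 3 WT libraries and 130.2, 141.3 and 124.5 CPM in the 3 FI3OE libraries. Every FI3OE library was far above the highest WT library, and the spread within each group was small. The log2 fold change was 2.45 (SE 0.060, adjusted p = 5.70e-10), a fitted rise of 5.47-fold. Nearly all of it was the 98-codon transcript, at 37.7 ± 1.76 TPM in WT and 211.5 ± 9.95 TPM in FI3OE, which carried 95.7% and 97.2% of the gene's TPM.

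Cxcl9, the related Cxcr3 ligand, measured 4.54, 4.33 and 5.46 CPM in WT and 13.1, 14.7 and 12.8 CPM in FI3OE. The groups did not overlap, and the log2 fold change was 1.51 (SE 0.11, adjusted p = 1.32e-06). Cxcl10 exceeded Cxcl9 by a TPM ratio of 13.5 in WT (range 11.4 to 15.6) and 26.6 in FI3OE (range 26.3 to 27.0), so the distance between the pair widened in every FI3OE library.

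Cxcl14, the homeostatic member, measured 3.26, 4.41 and 4.84 CPM in WT and 10.3, 9.97 and 10.5 CPM in FI3OE. The FI3OE libraries lay close together and all above WT, with a log2 fold change of 1.31 (SE 0.14, adjusted p = 1.70e-05). The 99-codon transcript accounted for 98.9% of its TPM in WT and 97.7% in FI3OE.

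Cxcl5, which attracts neutrophils, had 11, 11 and 18 reads in WT (0.460, 0.511 and 0.709 CPM) and 30, 23 and 35 reads in FI3OE (1.27, 0.849 and 0.948 CPM). The groups did not overlap, and the log2 fold change was 0.86 (SE 0.30, adjusted p = 0.0452). The call was kept in 4 of 14 alternatives, with adjusted p from 0.0248 to 0.339.

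Cxcl12, the most abundant member in WT, measured 105.9, 126.2 and 135.9 CPM in WT and 93.8, 88.5 and 93.3 CPM in FI3OE. All FI3OE libraries were below all WT libraries, and the log2 fold change was -0.40 (SE 0.076, adjusted p = 0.00154), which is short of the fold-change cutoff. In WT, 88.7% of its TPM was the 89-codon transcript, and in FI3OE 89.2%.

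Cxcl1 measured 1.76, 1.02 and 1.61 CPM in WT and 0.930, 0.812 and 1.30 CPM in FI3OE, and the groups overlapped (log2 fold change -0.50, SE 0.28, adjusted p = 0.194). Cxcl16 measured 33.6, 29.99 and 37.6 CPM in WT and 31.8, 30.2 and 29.6 CPM in FI3OE (log2 fold change -0.13, SE 0.074, adjusted p = 0.189). Cx3cl1 measured 5.85, 4.74 and 4.53 CPM in WT and 5.07, 4.95 and 4.55 CPM in FI3OE (log2 fold change -0.04, SE 0.13, adjusted p = 0.844). For these 3 a difference was not shown. Cxcl16 rested on single libraries: without WT replicate 2 its log2 fold change was -0.20 (adjusted p = 0.0407), and without WT replicate 3 it was -0.039 (adjusted p = 0.670). Cxcl13 had 7, 7 and 9 reads in WT and 3, 10 and 6 in FI3OE, too few to test in this fit.

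Only part of the Cxcl16 signal came from the transcript that encodes the full protein: the 246-codon transcript made up 26.6% of the gene's TPM in WT and 20.04% in FI3OE. A transcript annotated as subject to nonsense-mediated decay made up 48.2% and 50.2%, and a retained-intron transcript 25.2% and 29.8%. The 246-codon transcript itself measured 8.89 to 9.91 TPM in WT and 6.48 to 6.90 TPM in FI3OE, ranges that do not overlap, although single transcripts were not tested.

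The 9 chemokines together held 197.2 ± 17.7 CPM in WT and 285.3 ± 7.13 CPM in FI3OE (SD, n = 3). Cxcl12 held the larger share of that sum in WT, 62.1% (range 59.1 to 63.9), and 32.2% in FI3OE (range 30.3 to 33.6). Cxcl10 held 12.5% in WT (range 11.1 to 13.2) and 46.2% in FI3OE (range 44.8 to 48.5). The leading chemokine transcript by reads was therefore Cxcl12 in every WT library and Cxcl10 in every FI3OE library.

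**Figure D2:**
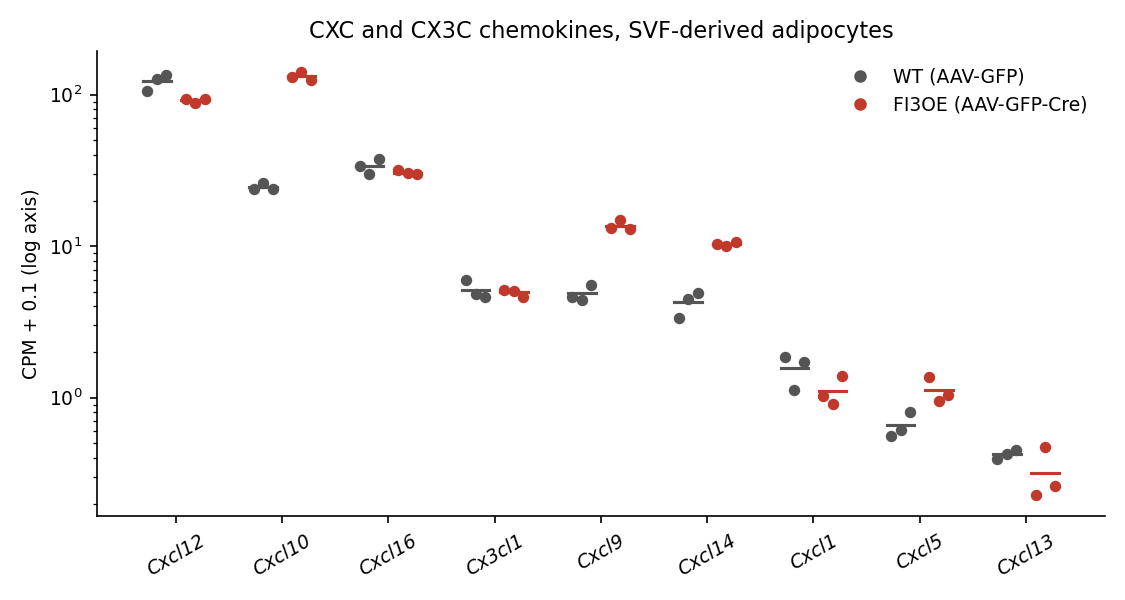
Chemokine levels in SVF-derived adipocytes as CPM plus 0.1 on a log axis, with WT (AAV-GFP) in grey and FI3OE (AAV-GFP-Cre) in red, 1 point per library and the bar at the mean. Cxcl10, Cxcl9, Cxcl14 and Cxcl5 lie wholly above WT in FI3OE, and Cxcl12 lies wholly below.

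With 3 libraries against 3, an exact two-sided permutation test on log2(CPM + 0.1) cannot give a p below 0.1, and it gave 0.1 for Cxcl5, Cxcl9, Cxcl10, Cxcl12 and Cxcl14. In a fit of all 18 libraries of the study, which pools their spread, the adjusted p was 0.0970 for Cxcl9 and 0.763 for Cxcl12, while Cxcl10 (1.02e-07) and Cxcl14 (0.0358) kept their calls. The log2 fold changes in that fit were 1.52 for Cxcl9 and -0.40 for Cxcl12.

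The cultures also held RNA of other cell types, and in bulk RNA more cells of a type and more RNA per cell cannot be told apart. The summed level of 18 macrophage markers was 2565 to 2733 CPM in WT and 2569 to 2601 CPM in FI3OE, with Lyz2 at 740.8 to 827.4 CPM and Adgre1 at 222.1 to 240.7 CPM over both groups. Of 17 macrophage markers tested, 6 were higher and 4 lower. This count and those of the next lists are to be read beside 20.2% of all genes higher and 16.8% lower. Mrc1 (log2 fold change -0.87) and Itgam (-0.59), both lower, had the smallest p, and the largest rises, named after their values were seen, were Fcgr1 (0.51) and Mpeg1 (0.49). Lyz2, the most abundant, did not pass (0.10, adjusted p = 0.0598). Cd68 measured 64.5 to 76.1 CPM over both groups. The 8 fibroblast and progenitor markers summed to 13523 to 13918 CPM in WT and 12769 to 12914 CPM in FI3OE, with 2 of 8 higher (Cd34, log2 fold change 0.72, and Thy1, 0.20) and 2 lower (the most abundant, Col1a1, -0.08, and Col3a1, -0.09, named after its value was seen). Pdgfra, at 399.6 to 456.4 CPM, did not pass (-0.05, adjusted p = 0.454). Their part in the chemokine differences was not tested.

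T and NK cell markers summed to 0.796 to 1.56 CPM and B cell markers to 0.186 to 0.380 CPM over both groups, with Cd3e at no more than 2 reads and Cd79a at no more than 8 reads in a library. Of these lists Cd3d alone was tested, and it was lower in FI3OE (log2 fold change -1.13, adjusted p = 0.0326). Endothelial markers summed to 68.7 to 77.5 CPM, with Tek higher (log2 fold change 0.39, adjusted p = 0.0424) and Pecam1 (0.52, adjusted p = 0.0732) and the most abundant, Flt1 (0.00, adjusted p = 0.969), among the other 6 tested, which did not pass. Mesothelial markers summed to 7.95 to 15.1 CPM, and none of 3 tested passed (Krt19, log2 fold change 0.46, Msln, 0.39, and Lrrn4, -0.53). The 10 adipocyte markers summed to 6950 to 7206 CPM, and 2 were higher and 5 lower, with Adipoq higher (log2 fold change 0.42) and Slc2a4 lower (-0.48) at the smallest p, and Fabp4, the most abundant, at 0.08 (adjusted p = 0.104).

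Other genes of the chemokine system were counted in the same cultures, where 37.0% of all genes tested were called. Of 9 receptors 5 were tested and 2 rose, Ackr3, the scavenger of Cxcl12 (10.9 ± 1.74 to 18.5 ± 1.70 CPM, log2 fold change 0.77, adjusted p = 2.62e-04), and Cxcr4, its signalling receptor (1.87 ± 0.262 to 2.93 ± 0.628 CPM, log2 fold change 0.65, adjusted p = 0.0266). The range of the 5 was -0.33 to 0.77. The next 2 receptors were chosen after their values were seen, for their ligands. Cxcr3, which binds Cxcl9 and Cxcl10, measured 0.406 to 0.920 CPM over both groups (log2 fold change -0.33, adjusted p = 0.548), and Cx3cr1 had fewer than 10 reads in every library and was not tested.

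Of 8 proteases and binding partners 3 rose and 1 fell (range -0.17 to 0.42), with Sdc1, a heparan sulfate proteoglycan (log2 fold change 0.42), and Hspg2, the basement membrane proteoglycan perlecan (-0.17), at the smallest p. Of 11 upstream factors and cytokines tested 6 rose and 1 fell (range -0.43 to 1.23), led by Irf7 (log2 fold change 1.23, 248.1 to 576.0 CPM) and Stat2 (0.83), both part of interferon signalling.

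The CC chemokines are the sister family, and 14 of 18 were tested. Of these 7 rose and 2 fell (range -0.44 to 3.46), with Ccl5 (2.07 to 22.6 CPM, log2 fold change 3.46), which the study names as an IRF3 target, and Ccl2 (17.7 to 50.0 CPM, 1.51) at the smallest p. Their summed level was 112.1 to 121.8 CPM in WT and 213.8 to 227.3 CPM in FI3OE. Of 6 other CXC chemokines 2 were tested and neither passed (Cxcl2, log2 fold change -0.46, adjusted p = 0.358, and Pf4, -0.12, adjusted p = 0.406).

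The second comparison asked how the chemokines differ in adipocyte RNA when adipocytes lack Irf3. Cxcl12 and Cxcl1 were lower in FI3KO TRAP RNA than in WT, and the distance lay between FI3KO and WT replicates 3 to 6, since WT replicates 1 and 2 were within the FI3KO range for both. Cxcl9, Cxcl10 and Cxcl16 did not pass the test, and Cxcl5, Cxcl13, Cxcl14 and Cx3cl1 were too low for the edgeR fit. Of the 5 tested, 2 had an adjusted p of at most 0.05 (edgeR, over 13624 genes), as did 37.4% of all genes tested. Both were lower, where 18.3% of all genes were lower and 19.1% higher, and both met the fold-change cutoff too, as did 4.87% of all genes in that direction. The median log2 fold change of the 5 was -0.14, and that of all genes tested was 0.02.

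Cxcl12 measured 9.09 and 11.1 CPM in WT replicates 1 and 2 and 50.8, 51.0, 53.1 and 55.9 CPM in WT replicates 3 to 6. The FI3KO libraries measured 11.3, 11.8, 11.4, 7.05, 8.84 and 6.14 CPM. The WT libraries fell into a low pair and 4 high libraries, and the FI3KO libraries lay with the low pair, 3 of them below every WT library. Over all libraries the log2 fold change was -1.97 (SE 0.42, adjusted p = 0.00350, exact two-sided permutation p = 0.0238, n = 6 each), a fitted fall of 3.93-fold.

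In replicates 3 to 6 the Cxcl12 means were 52.7 ± 2.38 CPM in WT and 8.35 ± 2.30 CPM in FI3KO (SD, n = 4), a ratio of 6.31, and a fit of these libraries gave a log2 fold change of -2.62 (adjusted p = 9.09e-07). In replicates 1 and 2 the means were 10.1 ± 1.399 and 11.5 ± 0.358 CPM (SD, n = 2), and the log2 fold change was 0.25 (adjusted p = 0.272). Per length the direction differed in these replicates. The gene's TPM was 6.93 and 8.17 in WT and 5.90 and 6.19 in FI3KO, lower without overlap. With the division as a term in the fit the log2 fold change was -1.74 (adjusted p = 0.00780), and with WT replicates 1 and 2 summed into 1 sample it was -2.18 (adjusted p = 7.74e-04).

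The 3 coding Cxcl12 transcripts are given one by one, as far as Salmon's estimates can part them. The 89-codon transcript (the alpha form) measured 33.4 to 38.7 TPM in WT replicates 3 to 6, 1.59 to 6.15 TPM in FI3KO replicates 3 to 6, 5.35 and 6.08 TPM in WT replicates 1 and 2, and 2.67 and 2.74 TPM in FI3KO replicates 1 and 2. It was thus lower in FI3KO without overlap in both sets. The 93-codon transcript (the beta form) measured 5.52 to 7.68 TPM in WT replicates 3 to 6, at most 0.0690 TPM in WT replicates 1 and 2, and at most 0.234 TPM in FI3KO. The 119-codon transcript (the gamma form) measured 2.61 to 3.90 TPM in WT replicates 3 to 6, 1.47 and 1.94 TPM in WT replicates 1 and 2, 2.78 and 3.20 TPM in FI3KO replicates 1 and 2, and 1.45 to 1.95 TPM in FI3KO replicates 3 to 6. Within replicates 3 to 6 it was thus lower in FI3KO without overlap, as the other forms were, and within replicates 1 and 2 it was higher, where the alpha form was lower and the gene's CPM differed little. The gamma form was 6.64% of Cxcl12 TPM in WT replicates 3 to 6, 22.5% in WT replicates 1 and 2, and 39.0% in FI3KO (range 23.2 to 51.7). Single transcripts were not tested.

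**Figure D3:**
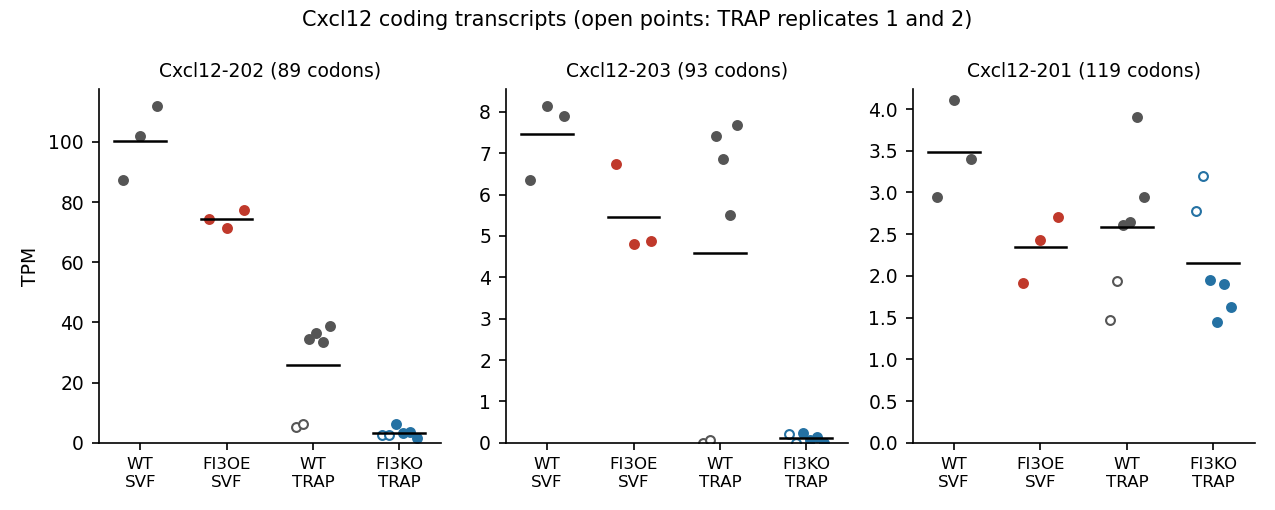
TPM of the 3 coding Cxcl12 transcripts on linear axes in the 4 groups, 1 point per library with the bar at the mean, open points being TRAP replicates 1 and 2. In TRAP replicates 3 to 6 all 3 transcripts are higher in WT than in FI3KO, and in replicates 1 and 2 the 89-codon transcript is lower and the 119-codon transcript higher in FI3KO.

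Cxcl1, the neutrophil attractant, measured 0.830 and 0.791 CPM in WT replicates 1 and 2 and 7.45, 6.19, 4.55 and 10.6 CPM in WT replicates 3 to 6. The FI3KO libraries measured 1.11, 1.39, 1.15, 0.526, 2.72 and 1.44 CPM, all below WT replicates 3 to 6, and 5 of the 6 above WT replicates 1 and 2. The log2 fold change over all libraries was -1.79 (SE 0.58, adjusted p = 0.0282, exact two-sided permutation p = 0.0823, n = 6 each). It was -2.22 in replicates 3 to 6 (adjusted p = 0.00131) and 0.68 in replicates 1 and 2 (adjusted p = 0.191), and with WT replicates 1 and 2 summed it was -2.01 (adjusted p = 0.00943). Leaving out any 1 of WT replicates 3, 4 and 6 or FI3KO replicates 3, 4 and 6 ended the call, with adjusted p from 0.0507 to 0.0767. A block for replicate number ended it too.

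**Figure D4:**
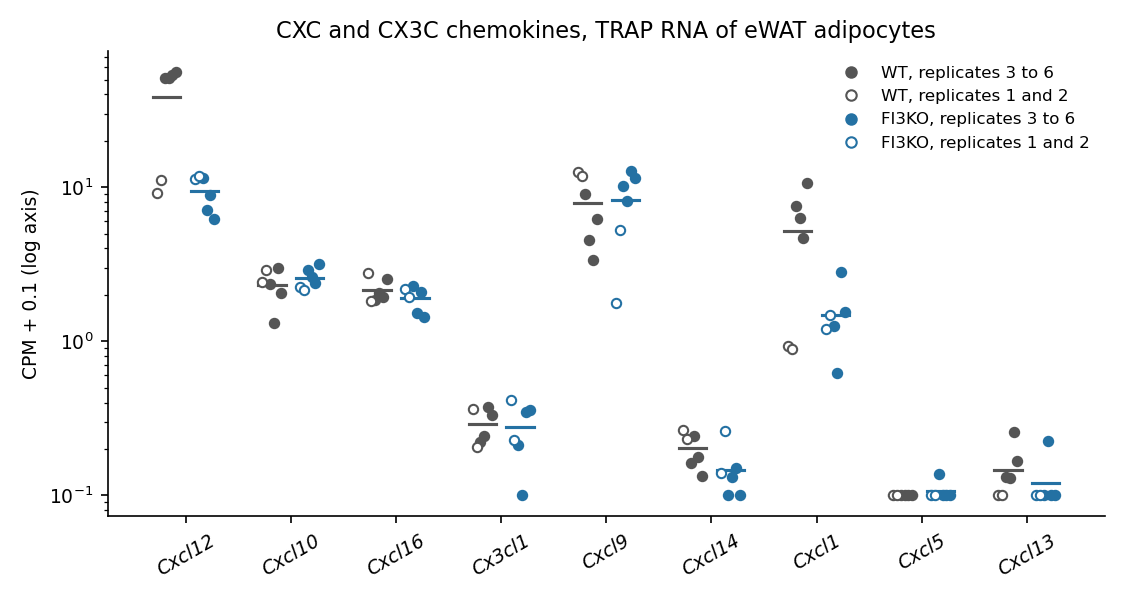
Chemokine levels in TRAP RNA as CPM plus 0.1 on a log axis, WT in grey and FI3KO in blue, with open points for replicates 1 and 2, filled points for replicates 3 to 6 and the bar at the mean of all 6. The open WT points of Cxcl12 and Cxcl1 sit among the FI3KO points, whereas Cxcl10 and Cxcl16 overlap throughout.

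Cxcl9 measured 12.5, 11.7, 8.997, 4.46, 3.26 and 6.15 CPM in WT replicates 1 to 6 and 1.66, 5.13, 10.1, 7.98, 12.7 and 11.5 CPM in FI3KO replicates 1 to 6. The direction turned between the replicate sets: in replicates 1 and 2 the means were 12.1 ± 0.557 CPM in WT and 3.398 ± 2.45 CPM in FI3KO, and in replicates 3 to 6 they were 5.72 ± 2.49 and 10.6 ± 2.03 CPM. Over all libraries the log2 fold change was 0.09 (SE 0.42, adjusted p = 0.878, exact permutation p = 0.957, n = 6 each). A fit of replicates 3 to 6 gave 0.94 (adjusted p = 0.0133) and a fit of replicates 1 and 2 gave -1.75 (adjusted p = 0.0797), and the difference between the sets was not tested.

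Cxcl10 measured 2.32, 2.79, 2.24, 1.203, 2.87 and 1.96 CPM in WT and 2.14, 2.07, 2.80, 2.51, 2.29 and 3.07 CPM in FI3KO. The groups overlapped, and the log2 fold change was 0.20 (SE 0.20, adjusted p = 0.463). Cxcl16 ranged from 1.71 to 2.69 CPM in WT (median 1.89) and from 1.34 to 2.18 CPM in FI3KO (median 1.92), with a log2 fold change of -0.14 (SE 0.18, adjusted p = 0.582). Neither moved past the test in any of 24 alternatives.

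The remaining members were near the limit of counting in TRAP RNA. Cx3cl1 had 4 to 8 reads in each WT library and 0 to 10 in FI3KO, Cxcl14 1 to 5 and 0 to 5, and Cxcl13 0 to 4 in both. Cxcl5 had a single read, in FI3KO replicate 3. Exact two-sided permutation tests on log2(CPM + 0.1) gave p = 0.0823 for Cxcl14, 0.424 for Cxcl13 and 0.684 for Cx3cl1. A difference in these members was not shown.

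The 9 chemokines together held 56.0 ± 22.1 CPM in WT TRAP and 23.5 ± 4.16 CPM in FI3KO (SD, n = 6). Cxcl12 held 62.3% of that sum in WT (range 32.7 to 80.3) and 41.1% in FI3KO (range 25.9 to 60.5). Cxcl10 held 5.01% (range 1.85 to 9.87) and 10.7% (range 7.93 to 13.0). The Cxcl12 share was higher in WT in replicates 3 to 6 and turned in replicates 1 and 2, at 32.7% in WT and 60.5% in FI3KO replicate 1. The sums of WT replicates 1 and 2 lay within the FI3KO range (18.6 to 28.9 CPM).

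Adipocyte markers summed to 26354 to 31611 CPM in WT TRAP and 23837 to 27928 CPM in FI3KO, the highest sum of the marker lists. Macrophage markers and Col1a1 were, like Cxcl12 and Cxcl1, highest in WT replicates 3 to 6. The 18 macrophage markers summed to 86.3 to 131.0 CPM in WT replicates 3 to 6, 52.2 to 52.3 CPM in WT replicates 1 and 2, 42.1 and 55.5 CPM in FI3KO replicates 1 and 2, and 19.0 to 23.1 CPM in FI3KO replicates 3 to 6. Of 15 tested, 12 were lower and 1 higher, where 18.3% of all genes were lower and 19.1% higher. The 12 lower ones met the fold-change cutoff too, as did 4.87% of all genes in that direction. Cd74 (log2 fold change -1.72) and Cd14 (1.66) had the smallest p, and Lyz2, the most abundant, measured 16.1 and 5.09 CPM. The defining markers Adgre1 (1.24 to 8.29 CPM in WT, 0.371 to 3.06 in FI3KO) and Cd68 (0.211 to 2.36 and 0.0928 to 0.419) were low but above 0. The 8 fibroblast and progenitor markers summed to 1544 to 2194 CPM in WT replicates 3 to 6, 968.5 to 974.8 CPM in WT replicates 1 and 2 and 540.2 to 1023 CPM in FI3KO. In that list, of 7 tested, Col1a1, which made up much of the sum, was lower (log2 fold change -1.82, 1005 to 271.4 CPM) and 5 did not pass. Dcn went the other way, at 20.2 CPM in WT replicates 3 to 6, 41.5 CPM in WT replicates 1 and 2 and 68.5 CPM in FI3KO (1.36). Pdgfra, between 1.11 and 4.67 CPM, did not pass over all libraries (log2 fold change -0.13, adjusted p = 0.798) and turned between the replicate sets. In replicates 3 to 6 it measured 3.08 ± 0.605 CPM in WT and 1.52 ± 0.599 CPM in FI3KO. In replicates 1 and 2 it measured 2.09 and 4.18 CPM. The part of these cells in the Cxcl12 and Cxcl1 results was not tested.

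T and NK cell markers summed to 0.192 to 0.727 CPM and B cell markers to 0.0614 to 0.831 CPM, with Cd3e at no more than 5 and Cd79a at no more than 4 reads in a library, and none was tested. Of 7 endothelial markers tested none passed (Kdr, the most abundant, log2 fold change 0.84, adjusted p = 0.0995, and Pecam1, 0.49, adjusted p = 0.237), and their sum reached 61.7 and 100.6 CPM in FI3KO replicates 1 and 2 against 24.04 to 45.2 CPM in the other libraries. Of 5 mesothelial markers none passed (Upk3b, log2 fold change -0.64, Lrrn4, 0.38, and Msln, the most abundant, -0.36). Of 10 adipocyte markers 4 were higher and 1 lower, with Lep lower (log2 fold change -1.63) and Pnpla2 higher (0.63) at the smallest p and Adipoq at 2267 ± 724.8 CPM in WT and 2961 ± 633.6 CPM in FI3KO (adjusted p = 0.115). Adipoq turned between the replicate sets. It was higher in FI3KO in replicates 3 to 6 (WT 1614 to 2025, FI3KO 2682 to 3835 CPM). It was lower in replicates 1 and 2 (WT 3176 to 3198, FI3KO 2084 to 2663 CPM).

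**Figure D5:**
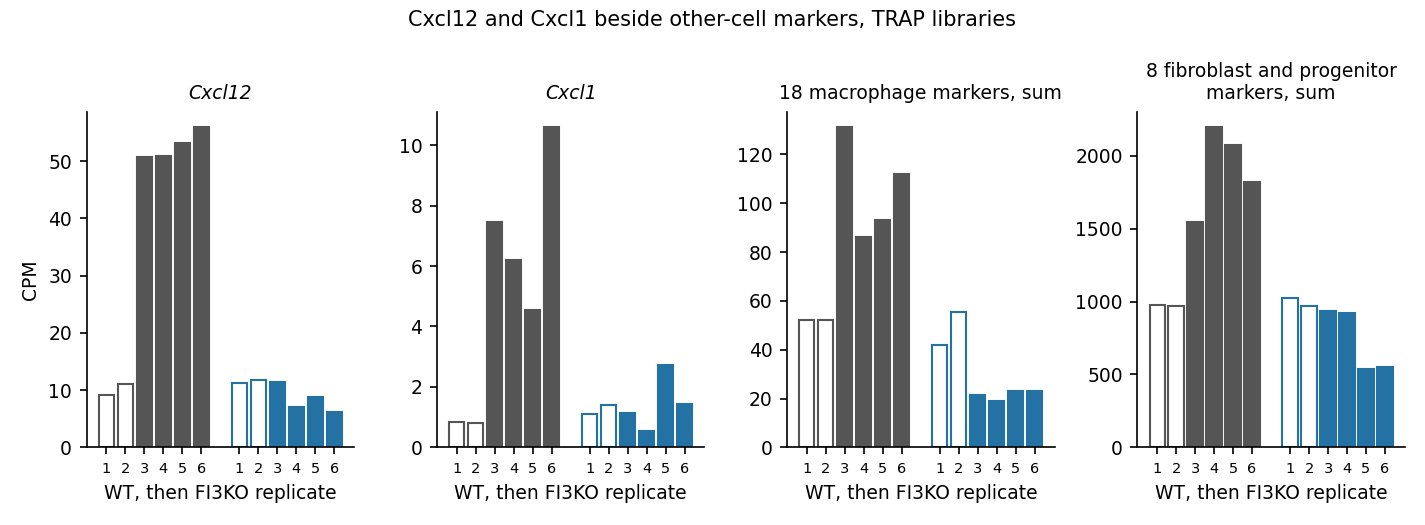
Bars on linear axes from 0 give CPM of Cxcl12 and Cxcl1 and the summed CPM of 18 macrophage and 8 fibroblast and progenitor markers in each TRAP library, WT in grey and FI3KO in blue, with open bars for replicates 1 and 2. WT replicates 3 to 6 are highest in all 4 panels, at 50.8 to 55.9 CPM for Cxcl12 and 4.55 to 10.6 CPM for Cxcl1.

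Among the other genes of the system, to be read beside the 37.4% of all genes called in TRAP, 2 of 9 receptors were tested in TRAP RNA and neither passed: Ackr3 measured 16.5 ± 6.13 CPM in WT and 12.7 ± 2.19 CPM in FI3KO (log2 fold change -0.32, adjusted p = 0.256) and Cxcr4 0.670 ± 0.219 and 0.375 ± 0.171 CPM (-0.78, adjusted p = 0.0878). Ackr3 turned between the replicate sets. It was lower in FI3KO in replicates 3 to 6 (WT 15.8 to 25.8, FI3KO 10.1 to 14.1 CPM). It was higher in replicates 1 and 2 (WT 9.52 to 10.2, FI3KO 12.4 to 16.1 CPM). Of 7 proteases and binding partners tested 6 were lower and 0 higher (range -1.5 to -0.25), with Adam10, which sheds Cxcl16 and Cx3cl1 (97.7 to 77.9 CPM, log2 fold change -0.28, adjusted p = 0.00281), and Sdc1 (15.5 to 8.82 CPM, -0.77, adjusted p = 0.00324) at the smallest p. Dpp4, chosen after its values were seen because this peptidase cleaves Cxcl9, Cxcl10 and Cxcl12, fell from 4.43 to 1.495 CPM (log2 fold change -1.5, adjusted p = 0.00610).

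Of 10 upstream factors tested 3 were called, below the 37.4% of all genes, 1 higher and 2 lower (range -0.88 to 0.22). Nfkb2 (log2 fold change -0.88) and Relb (-0.43), the pair of the noncanonical NF-kB pathway, had the smallest p. Nfkb2 measured 24.6 to 57.2 CPM in WT and 22.6 to 24.1 CPM in FI3KO. Relb measured 19.7 to 33.4 CPM in WT and 16.9 to 20.8 CPM in FI3KO. Of 9 CC chemokines tested 1 was higher and 6 lower (range -4.14 to 0.96), with Ccl11 (10.4 to 1.37 CPM, log2 fold change -2.86), which attracts eosinophils, and Ccl7 (32.6 to 2.97 CPM, -3.40), which attracts monocytes, at the smallest p. Their sum followed the same replicate sets as Cxcl12: 104.5 to 123.1 CPM in WT replicates 3 to 6, 33.3 to 35.5 CPM in WT replicates 1 and 2 and 9.92 to 21.1 CPM in FI3KO. None of 6 other CXC chemokines reached the level needed for the test.

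Side by side, Cxcl12 was the one member past the test in both experiments when all their libraries were used, and it was lower in both. Its call in the cultures was lost in the fit of all 18 libraries (adjusted p = 0.763). In TRAP its direction by read counts turned in replicates 1 and 2 (log2 fold change 0.25, adjusted p = 0.272). By TPM it was lower in FI3KO in both replicate sets. Cxcl10 and Cxcl9 had log2 fold changes of 2.45 and 1.51 in FI3OE cultures and of 0.20 and 0.09 in FI3KO TRAP RNA. The Cxcl9 value in TRAP joins opposite directions, 0.94 in replicates 3 to 6 (adjusted p = 0.0133) and -1.75 in replicates 1 and 2 (adjusted p = 0.0797). Cxcl12 had a log2 fold change of -0.40 in FI3OE and of -1.97 in FI3KO, and Cxcl1 of -0.50 and -1.79. Cxcl16 had a log2 fold change of -0.13 in one and -0.14 in the other and passed in neither. The experiments share no library, and the difference between their effects was not tested.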

How the data were processed

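RNA was depleted of rRNA, converted to Nextera XT libraries and sequenced on an Illumina instrument, with no strand marking. Per the labels and the study's methods, the authors trimmed reads with fastp and quantified transcripts with Salmon 1.4.0 (build GRCm38), and deposited for each of 18 libraries estimated counts, TPM and effective lengths of 118733 transcripts, with no normalization of the estimated counts. TPM as deposited by the authors is scaled to the same total in every library. Salmon shares reads among transcripts and near-identical genes, so low values and transcript shares are estimates.

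Estimated counts of a gene's transcripts were added up by GENCODE M21 (117850 matched by identifier and 883 kept on their own) and rounded. CPM is that sum per 1e6 estimated reads. Each experiment was fitted by itself with edgeR 4.0.16 (R 4.3.3): filterByExpr, TMM, quasi-likelihood test, Benjamini-Hochberg adjustment over all genes tested, no covariates. Cutoffs, as in the study's methods, were 0.05 for the adjusted p and 1 for the size of the log2 fold change. Every adjusted p, fitted log2 fold change and SE comes from this fit unless another fit is named beside it. The SE was derived, as the size of the log2 fold change over the square root of the test's F statistic. Exact two-sided permutation tests used log2(CPM + 0.1) and every division of the libraries into groups of the same sizes, in Python 3.11.15 with numpy 2.4.6. On simulated data, 99.5% of 200 genes with a log2 fold change of 1.5 were recovered for the SVF design and 98.5% for the TRAP design, with 15 false calls each. The changed genes were drawn only from genes above a set CPM level, and the simulated libraries held no replicate sets. These rates therefore do not cover chemokines of low CPM or the divided WT TRAP group.

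The genes named are the chemokines, Irf3, and of 12 other lists the 2 tested members with the smallest p, with the most abundant and the defining markers of cell type lists. The chemokines, the lists and the replicate division were chosen with earlier results of these data known. Alternatives were DESeq2 size factors and the Wald test of DESeq2 1.42.0, testing without a low-count filter, at least 10 reads in every library, an offset for transcript length, robust dispersion, all 18 libraries in the fit, a block for replicate number, leaving out each library, no fold-change cutoff, subsets of the TRAP replicates, WT TRAP replicates 1 and 2 summed, a pseudocount of 1 and CPM per length. Promoter sequences are from RefSeq, build GRCm38.p6.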

Additional observations from a re-analysis of the deposited data

Results flagged for a closer look

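Of 16 sets of 6 libraries (8 chemokines in each TRAP group, leaving out Cxcl5 at no more than 3 reads), 2 had a library far from the others by Dixon's test of the gap over the range, for which chance gives about 1 in 20. Cxcl13 was 0.124 CPM in FI3KO TRAP replicate 4, from 4 reads, and 0 in the other FI3KO libraries. With the others at 0 the gap equals the range whatever the value, so the Cxcl13 flag decides nothing. Cxcl14 was 0.161 CPM in FI3KO TRAP replicate 2, from 5 reads, and 0 to 0.0494 CPM in the others.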

How the results depend on the processing

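In FI3OE against WT, 3 chemokines met both cutoffs, with 2 in the fit of all 18 libraries, 4 without WT replicate 3 and 5 without the fold-change cutoff. Over all genes 583 met both, with 342 in the fit of all 18 libraries and 5960 without the fold-change cutoff. In FI3KO against WT TRAP, 2 chemokines met both cutoffs, 1 with the replicate block, 0 with replicates 1 and 2 only, and 1 to 2 when single libraries were left out. Over all genes 901 met both, with 1355 in the fit of all 18 libraries, 574 with at least 10 reads in every library, 191 in replicates 1 and 2 only, 1868 in replicates 3 to 6 only and 5095 without the fold-change cutoff.

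Directions turned in replicates 1 and 2 only for Cxcl1 (log2 fold change 0.68), Cxcl9 (-1.75), Cxcl10 (-0.23) and Cxcl12 (0.25). For Cxcl12 this held for read counts, and its TPM was lower in FI3KO in these replicates too. The TRAP difference of Cxcl9, which was not called, also turned among fits that left out 1 library (-0.085 to 0.29) and in mean log2 CPM (-0.25 to 0.36). For Cx3cl1 in SVF-derived adipocytes, also not called, it was 0.14 with the length offset, -0.11 to 0.078 when 1 library was left out and -0.12 to 0.066 in mean log2 CPM. The cause was not tested.

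Replicate numbers were not shown to pair libraries: same-numbered libraries had correlations of deviations from -0.0458 to 0.0154 (SVF) and from -0.293 to 0.104 (TRAP). With the replicate block, 579 genes in FI3OE and 736 in FI3KO met both cutoffs, and the adjusted p was 0.0689 for Cxcl5 in SVF and 0.1297 for Cxcl1 in TRAP. The Cxcl5 log2 fold change was 0.86 with the block, as without it. In TRAP, Cxcl5, Cxcl13, Cxcl14 and Cx3cl1 had at most 10 reads a library, too few for the edgeR fit, although these libraries were as deep as those of the cultures.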
